A study of Mus musculus with 16 samples.

Results

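The regions described here are the 754 widest stretches of open chromatin in the list deposited for this study of regulatory T cells (Treg cells, CD4+ T cells that restrain other immune cells). They were chosen by 1 rule, a width (end minus start) of 400 bp or more on chromosomes 1 to 19 and X, and make up 1.00% of the 75356 regions there (exact binomial 95% interval 0.931 to 1.07%). The list was deposited once for the series of 16 ATAC-seq samples and names no sample beside a region. Which samples entered it is not stated, so neither a tissue nor a mouse can be given for any wide region. ATAC-seq marks open DNA by the places where a transposase can insert.

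The samples were sorted CD4+CD25+ Treg cells of C57BL/6 mice, with no genetic change or drug named in the labels, and no age. There were 8 groups of 2 samples from 8 mice, each mouse giving 1 sample of a tissue and 1 of its own spleen. The tissue groups were epididymal visceral adipose tissue (2 mice), hindlimb skeletal muscle after injury (2 mice), and colonic lamina propria in the groups titled Nrp1p (2 mice) and Nrp1n (2 mice). The other 4 groups were the matching spleens. Sorting on CD25 alone can also take in activated T cells that are not Treg cells, and the cell type was not checked against marker genes, since no value per gene or sample was analysed here.

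Open chromatin in T cells lies mainly at promoters and enhancers, where bound transcription factors keep nucleosomes away. A wide open stretch can arise where several factors bind side by side or where a nucleosome between bound sites is lost. Groups of open regions packed along some kilobases of DNA are a known feature of genes that define a cell's identity, and in Treg cells Foxp3, the factor that defines the lineage, binds largely at enhancers that other T cell factors have already opened. What follows asks how many wide regions there are, on which chromosomes they lie, and whether they have more neighbours and sit in linked groups more often than regions of common width, taken as the 56042 regions of 150 to 250 bp. Genes at these positions were not assigned and no sequence was read, because no annotation or genome of mm9, the build of the list, was used here.

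Width chose these regions, so their widths are given only as a description. The 754 regions covered 345 kb, or 2.27% of all bases in the list. Their median width was 438.5 bp, with 25th and 75th percentiles of 415 and 478.75 bp, against a median of 188 bp in the regions of 150 to 250 bp. Most lay close to the limit. There were 435 regions (57.7%) from 400 bp to under 450 bp, 184 (24.4%) from there to under 500 bp, 108 (14.3%) from 500 bp to under 600 bp and 27 of 600 bp or more. At the limit itself, 16 regions were exactly 400 bp wide and 13 were 1 bp narrower, and the first 10 widths from 400 bp held 137 regions where the 10 widths below held 163. The numbers therefore ran on across 400 bp with no break, and the limit marks a point on a tail. No single width was overfull among the wide regions. The most frequent, 401 bp, held 20 regions, and the 754 regions took 190 distinct widths. In the comparison class of 150 to 250 bp, by contrast, 4195 regions were exactly 150 bp wide, and the cause was not tested.

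**Figure D1:**
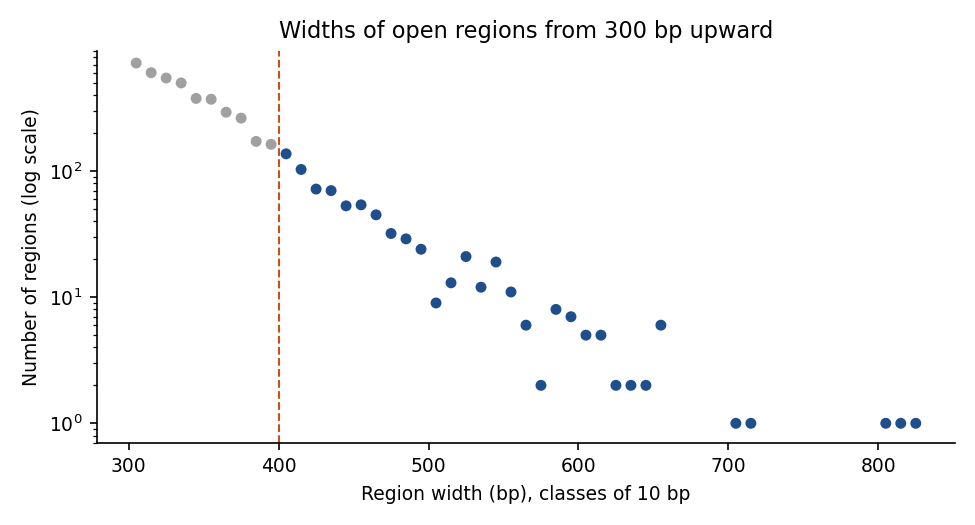
Number of regions (vertical axis, log scale) in classes of 10 bp of width (horizontal axis, bp, from 300 bp). Each point is 1 class that holds regions, blue from 400 bp (dashed line), and the numbers pass from 163 in the last class below it to 137 in the first class above it without a step.

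The 5 widest regions stood apart in the list, since no region was wider than 658 bp and narrower than 704 bp. The widest, chr19:11119523-11120350 (828 bp), had its nearest neighbour 2255 bp away and belonged to a group of 6 regions linked by gaps under 12500 bp. The next, chr18:55708035-55708853 (819 bp), had 1 linked neighbour, 616 bp away. The region chr4:144487632-144488440 (809 bp) lay 3073 bp from its nearest neighbour in a linked group of 8. After a step in width came chr16:17200247-17200964 (718 bp), with a neighbour at 525 bp and a linked group of 5. The fifth, chr11:100301482-100302185 (704 bp), had a neighbour at 106 bp and no other linked region. None of these 5 was isolated, and none belonged to a group of 10 or more.

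Such large groups did hold 5 of the 20 widest regions. The region chr4:6867842-6868499 (658 bp) was 1 of 38 linked regions, and 26 other regions had their centres within 50 kb of its own. On X, chrX:156173777-156174390 (614 bp) was 1 of 27 linked regions and lay 16 bp from a 237 bp neighbour. In that order, their 1 Mb bins held 81 and 53 regions, where the median for wide regions was 62. The region chr2:117215736-117216361 (626 bp) was 1 of 21, chr2:102808254-102808908 (655 bp) 1 of 18, and chr5:125885705-125886353 (649 bp) 1 of 14. Other very wide regions stood nearly alone. Among these, chr5:122160955-122161582 (628 bp) had no region within 49648 bp although its 1 Mb bin held 90, and chr5:110877446-110878084 (639 bp) had none within 13357 bp.

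The remaining 8 of the 20 lay between these extremes, in groups of 2 to 7 regions. Next to chr18:36440648-36441300 (653 bp), at 144 bp, was a region of 363 bp, just short of the limit. The region chr6:17230965-17231614 (650 bp) lay 17 bp from a 185 bp neighbour on one side and 193207 bp from any region on the other. A neighbour 82 bp away flanked chr2:73108448-73109066 (619 bp), and neighbours at 218 and 405 bp flanked chr7:95355022-95355654 (633 bp) and chr19:8831138-8831751 (614 bp). Gaps were longer at chr9:77391442-77392087 (646 bp, 533 bp), chr1:52511265-52511920 (656 bp, 1584 bp) and chr7:51782961-51783614 (654 bp, 5576 bp), where the first value is the width and the second the gap to the nearest region. In all, 9 of the 20 had a neighbour within 500 bp, 18 had one within 12500 bp, and they were spread over 12 chromosomes.

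Wide regions were found on all 20 chromosomes examined. By number, chromosome 2 led with 73, followed by chromosome 11 with 57 and chromosome 1 with 54, while chromosomes 16 and X had 21 each. As a share of a chromosome's own regions, they made up 1.00% ± 0.194 (SD, n = 19 autosomes). Chromosome 18 had the highest share, 1.47% (32 of 2177 regions, exact binomial 95% interval 1.01 to 2.07%), then chromosome 14 with 1.34% (37 of 2762) and chromosome 2 with 1.24% (73 of 5909). The lowest were chromosome 3 with 0.708% (28 of 3957, interval 0.471 to 1.02%), chromosome 16 with 0.740% and chromosome 5 with 0.790%. The intervals of the highest and the lowest chromosome just overlapped. These intervals cover counting error only, and differences between chromosomes were not tested.

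On X, where open regions were sparse, the share of wide ones was above the autosome mean. X had 1.23% wide regions (21 of 1711, interval 0.761 to 1.87%), which lay 1.16 autosome SDs above the autosome mean. Per megabase X had 0.126 wide regions against 0.300 ± 0.0691 on the autosomes (SD, n = 19), or 0.420 times as many, and for all regions the ratio was 0.341. On Y, which entered no comparison, none of 7 regions reached 400 bp. Chromosome 11 had the most per megabase, 0.468, and also the most regions of 500 bp or more, 13.

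**Figure D2:**
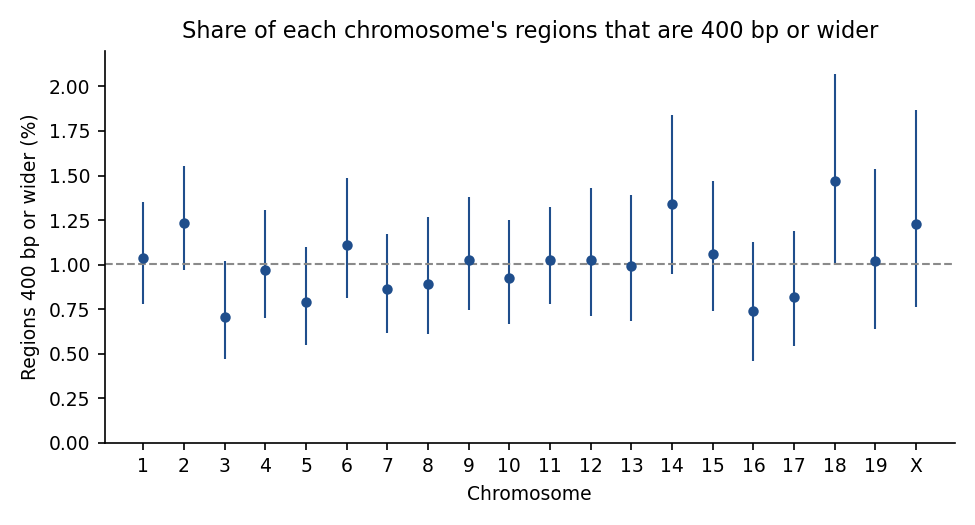
Share of regions that are 400 bp or wider (vertical axis, %) on each chromosome (horizontal axis). Points are shares, bars exact binomial 95% intervals and the dashed line the mean of the 19 autosomes (1.00%), from 0.708% on chromosome 3 to 1.47% on chromosome 18.

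Wide regions more often had a close neighbour than regions of common width. Another region lay within 500 bp (edge to edge) of 321 of the 754, or 42.6%, against 38.7% of all 75356 regions and 35.3% of the 56042 regions of 150 to 250 bp. Averaged over chromosomes, the shares were 42.1% and 35.2%, a difference of 6.95 percentage points (SD 7.94, SE 1.78, n = 20 chromosomes). The share was higher for wide regions on 17 of 20 chromosomes (exact two-sided sign-flip permutation test over chromosomes, p = 0.00137, adjusted p = 0.00445). The lead was largest on chromosome 7 (57.5% against 36.0%) and chromosome 10 (54.8% against 38.2%). It was turned round on chromosome 14 (21.6% against 34.2%), 12 and 17. Against all regions under 400 bp, of which the narrowest have many close neighbours, the difference was 3.60 points and did not pass (adjusted p = 0.0901, the same permutation test). Measured from centre to centre, where a wide region's own bases count towards the distance, the direction reversed and passed, at -6.70 points (higher on 2 of 20 chromosomes, adjusted p = 0.00036 by the same permutation test). This and the 8 other measures below were adjusted together by Benjamini-Hochberg, and chromosomes, not mice, are the unit, so each p describes the layout of the list.

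The median gap from a wide region to its nearest neighbour was 763.5 bp, and 1373 bp for regions of 150 to 250 bp. The lower quartiles, 207.5 and 263 bp, were nearer to each other than the medians. Close neighbours stood mostly on 1 side. A neighbour within 500 bp on 1 side only was found for 287 wide regions (38.1%), 33.1% of all regions and 30.4% of common ones. Both sides had one for 34 wide regions (4.51%), 5.63% of all regions and 4.82% of common ones. Whether these 1-sided and 2-sided shares differ was not tested.

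Along the distance from the region's edge, the surplus was uneven. Up to 750 bp, other regions were 1.04 to 1.27 times as frequent beside wide regions as beside regions of 150 to 250 bp, with 13.0 against 10.5 per 100 regions in the first 100 bp. Between 750 and 5000 bp the ratio was 0.952 to 0.988, so no surplus was seen there. From 5000 to 50000 bp it was 1.09 to 1.11. The near part rests on 509 neighbours of wide regions and the far part on 6912. The classes of distance were described and not tested one by one.

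**Figure D3:**
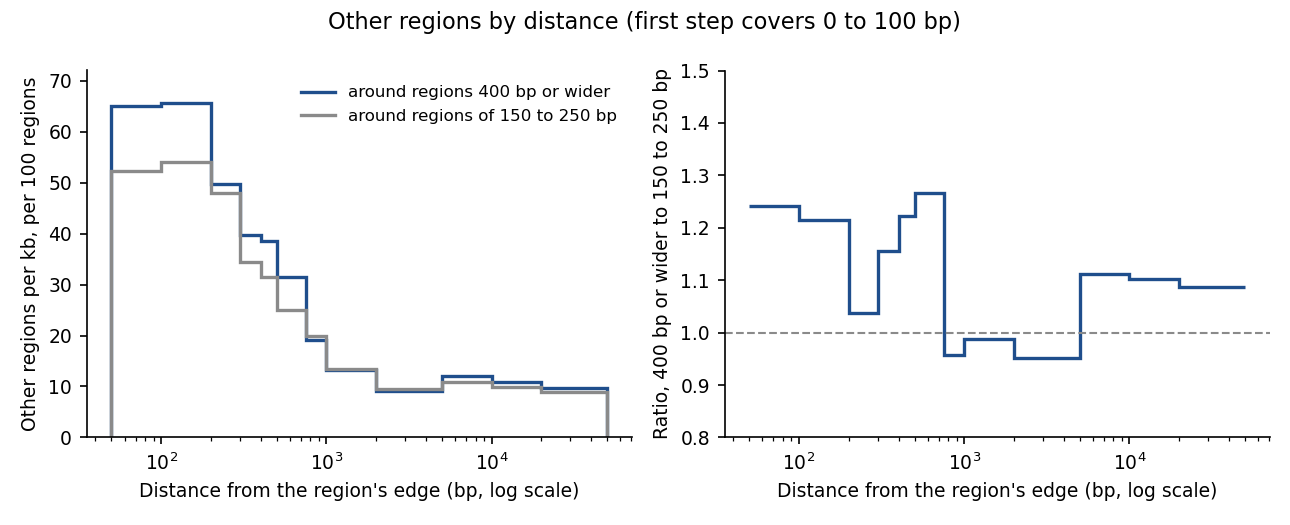
Left, other regions per kb on both sides of 100 regions (vertical axis) by distance from the region's edge (horizontal axis, bp, log scale), for wide regions (blue) and regions of 150 to 250 bp (grey). Right, the ratio of both, which is 1.04 to 1.27 up to 750 bp, just below 1 to 5000 bp and 1.09 to 1.11 beyond.

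Wide regions were isolated less often than common ones. With gaps under 12500 bp counted as links, 73 of the 754 (9.68%) had no linked neighbour, against 12.9% of all regions and 14.1% of those of 150 to 250 bp. The mean difference over chromosomes was -4.19 points (SD 5.41, SE 1.21), and the share was lower on 16 of 20 chromosomes (exact sign-flip permutation p = 0.00297, adjusted p = 0.00445). The same comparison read the other way gives 681 wide regions (90.3%) with a neighbour within 12500 bp, against 87.1% of all regions and 85.9% of the 150 to 250 bp class. On chromosome 1 a single wide region of 54 was isolated (1.85%, against 14.5%), and on chromosome 12 a single one of 34 (2.94% against 15.8%). On X, where gaps are long, the shares were 23.8% and 23.5%. Chromosome 15 went the other way, with 7 of 35 wide regions isolated, against 12.2% of the common ones.

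When regions less than 1000 bp apart were merged before neighbours were counted, the difference in isolated regions was -3.01 points and no longer passed (exact sign-flip permutation, adjusted p = 0.0939). The 5 most isolated wide regions were chr10:125939322-125939765 (444 bp), chr9:58795927-58796377 (451 bp), chrX:69061712-69062117 (406 bp), chr18:21458666-21459108 (443 bp) and chr19:55476085-55476505 (421 bp). Their nearest neighbours lay 367, 261, 186, 178 and 68.7 kb away, in that order. The first stood in a 1 Mb bin with 1 further region and the third was alone in its bin, while the others shared theirs with 23 to 34.

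Wide regions were members of linked clusters of 10 or more regions more often than common regions. Of the 754, 210 (27.9%) were in such a cluster, against 24.2% of all regions and 23.3% of those of 150 to 250 bp. Over chromosomes the difference was 5.19 points (SD 6.28, SE 1.40), with higher shares on 15 of 20 (exact sign-flip permutation p = 0.00177, adjusted p = 0.00445). Chromosome 10 (42.9% against 27.7%), chromosome 1 (40.7% against 27.9%) and chromosome 6 (37.8% against 26.3%) had the highest shares of wide regions in clusters. On X 14.3% were in clusters against 6.18%, which is 3 wide regions. Lower shares for wide regions were found on chromosomes 9, 2, 13, 14 and 4, where the differences ran from -0.616 to -3.78 points.

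This difference depended on how far a link may reach. With links under 5 kb it was 0.0763 points (exact sign-flip permutation, adjusted p = 1), and with links under 25 kb it was 5.67 points (adjusted p = 0.0041). In clusters of 20 or more, at 12500 bp, were 61 wide regions (8.09%), against 7.35% of all regions and 7.04% of the 150 to 250 bp class. That difference, 0.792 points (SD 3.65, higher on 11 of 20 chromosomes), did not pass (exact sign-flip permutation p = 0.339, adjusted p = 0.382). Most wide regions lay in smaller groups, 245 (32.5%) in groups of 2 to 4 and 226 (30.0%) in groups of 5 to 9. The shares were 35.2% and 27.7% for all regions, and 35.4% and 27.2% for common ones.

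**Figure D4:**
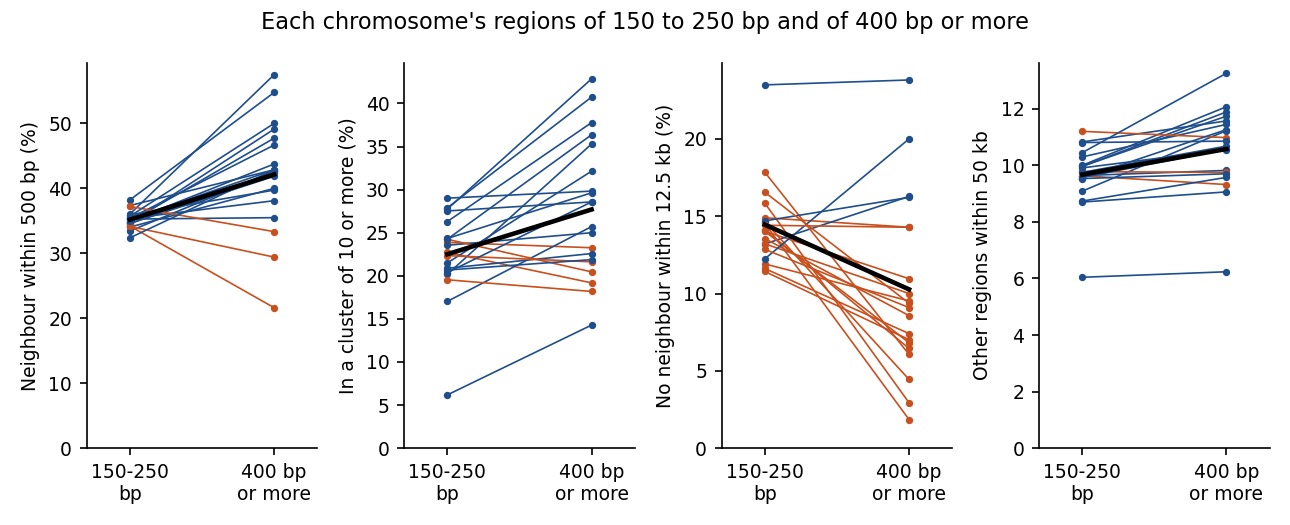
Each line is 1 chromosome, from its regions of 150 to 250 bp (left) to its wide regions (right), blue where the value is higher for wide regions and orange where lower; the black line joins the means of 20 chromosomes. The panels show the share with a neighbour within 500 bp (mean 35.2 to 42.1%), in a cluster of 10 or more (22.5 to 27.7%), with no neighbour within 12500 bp (14.5 to 10.3%), and the mean number of other regions within 50 kb (9.67 to 10.6).

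The 754 wide regions, 1.00% of all regions, lay in 724 of the 24047 linked groups or single positions. None held more than 2. No number expected from the share of 1.00% was computed, so whether this spread is thin or dense was not tested. Of the 1193 clusters of 10 or more regions, 193 (16.2%) held at least 1 wide region, and of the 210 clusters of 20 or more, 56 (26.7%) did. A larger cluster has more regions that could be wide, so these shares rise with size in any case. Counted by region, 210 of 18233 in clusters of 10 or more were wide, and 61 of 5539 in clusters of 20 or more. In the whole list 754 of 75356 were. Of the 10 clusters with the most regions, 4 held a wide region and 6 held none. Together these 10 held 5 wide regions among 461, a share near that of the whole list. The largest of all, 65 regions on chromosome 14 (chr14:122297812-122489979), had 1, chr14:122441234-122441666 (433 bp). The next, 64 regions on chromosome 12 (chr12:74635675-74827497), had none, and its widest region was 385 bp. The clusters of 49 regions on chromosome 1 and 39 on chromosome 10 had 1 each, chr1:60973214-60973614 (401 bp) and chr10:80986777-80987267 (491 bp).

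There were 30 clusters with 2 wide regions, 17 of them with 10 or more regions. All are tied at 2, so the 5 named here are those with the most regions, a tie-break chosen after the values were seen. The first was a 137 kb cluster of 45 regions, chr7:80662409-80799355, with wide regions at chr7:80691475-80691899 (425 bp) and chr7:80733380-80733859 (480 bp). Next came chr6:124633737-124732807 with 28 regions and chr14:121710299-121778888 with 25, whose widest regions were 416 and 544 bp. The other two were chr11:116229511-116307585 and chr17:73266597-73327807, with 21 regions each and widest regions of 452 and 464 bp. Within clusters of 10 or more, 39 of 210 wide regions (18.6%) stood at an end of the cluster. The share was 13.1% for all regions and 13.4% for the common ones, and these differences were not tested.

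Some wide regions lay side by side. Neighbouring wide regions on a chromosome were a median of 1494 kb apart, and of 734 such pairs 20 were under 12500 bp and 5 under 500 bp apart. The closest pair was on chromosome 6, where 56 bp separated chr6:113573858-113574257 (400 bp) from chr6:113574314-113574727 (414 bp). On chromosome 19, 76 bp lay between chr19:37624594-37625060 (467 bp) and chr19:37625137-37625580 (444 bp). These pairs spanned 870 and 987 bp from the first base to the last, longer than any single region of the list. The next pairs were chrX:34297918-34298350 with chrX:34298478-34298877 (127 bp apart), chr11:88459986-88460403 with chr11:88460616-88461040 (212 bp) and chr10:121022867-121023282 with chr10:121023757-121024162 (474 bp). No other region stood between the 2 members of any of these 5 pairs.

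The nearest neighbours of wide regions were mostly of common width. Their median was 195.5 bp, against 190 bp for the neighbours of regions of 150 to 250 bp. Neighbours of 300 bp or more were found for 63 wide regions (8.36%), against 6.39% of all regions and 6.06% of the common ones. The mean difference of 2.44 points (SD 5.47, higher on 13 of 20 chromosomes) did not pass (exact sign-flip permutation p = 0.0615, adjusted p = 0.079). For 15 wide regions (1.99%) the nearest neighbour was itself 400 bp or wider, as it was for 0.977% of all regions and 0.903% of common ones, a difference that was not tested. Among neighbours within 500 bp, 78 of 321 (24.3%) were 150 bp or narrower, as were 4949 of 19760 beside common regions. Beside all regions the share was 23.0%, and these shares are given without a test.

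The surroundings of wide regions were also more crowded at longer range than those of common regions. A wide region had on average 10.6 other regions within 50 kb of its centre and a common region 9.67 (means over chromosomes), a difference of 0.907 regions (SD 0.899, SE 0.201). It was higher on 17 of 20 chromosomes (exact sign-flip permutation p = 0.000132, adjusted p = 0.00118). The difference was 0.521 regions with common regions weighted to the local density of the wide ones (adjusted p = 0.0203) and 0.587 with regions within 1000 bp merged (adjusted p = 0.000463, both by the same permutation test). The 1 Mb bin around a wide region held 63.6 regions against 59.5, a difference of 4.19 (SD 5.15, higher on 18 of 20; exact sign-flip permutation p = 0.00234, adjusted p = 0.00445). The mean position along the chromosome was 55.5% of its length for wide regions and 55.2% for common ones. That difference of 0.364 points (SD 5.66) did not pass (exact sign-flip permutation p = 0.776, adjusted p = 0.776).

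Crowding and clusters go together, so the shares are also given by the number of regions in the 1 Mb bin. In bins of up to 20 regions, 0.656% of regions were wide (45 of 6855, exact binomial 95% interval 0.479 to 0.877%), and in bins of 81 to 100 regions 1.22% were (137 of 11263, interval 1.02 to 1.44%). These were the lowest and highest of the 6 classes. The other classes were close to each other, with 0.980% at 21 to 40 regions, 1.02% at 41 to 60, 0.957% at 61 to 80 and 1.07% above 100, and no trend over the classes was tested. In bins of 81 to 100 regions, 42.3% of wide regions were in clusters of 10 or more against 34.1% of common ones. In bins of 61 to 80 the shares were 32.0% and 26.8%. In bins of more than 100 regions they were 43.6% and 42.8%, and in bins of up to 20 regions 2.22% and 2.61%. In bins of 21 to 40 regions they were 12.9% and 11.9%, and in bins of 41 to 60 regions 23.1% and 21.3%. The share was thus higher for wide regions in 5 of 6 classes, by varying amounts. The exception was the emptiest bins, where 1 wide region of 45 was in a cluster. In every class the common share lay within the exact binomial 95% interval of the wide one, such as 33.9 to 51.1% in bins of 81 to 100. The classes were not tested one by one. The common regions were also weighted to the wide ones by broad classes of bin, up to 40, 41 to 80 and more than 80 regions. This matched local density only coarsely, since shares in clusters still differed within such a class. The difference for clusters of 10 or more was then 3.71 points (exact sign-flip permutation, adjusted p = 0.0241). For close neighbours it was 6.60 points (adjusted p = 0.0105, the same permutation test).

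The fullest bin for wide regions was on chromosome 2 (chr2:9000001-10000000), with 5 among 97 regions. A further 8 bins held 4, 32 held 3, 109 held 2 and 403 held 1, while 1494 of the 2047 bins with any region held none. With 754 wide regions for 2047 bins, most bins must hold none in any case. Whether the spread over bins is uneven was not tested, and the bin on chromosome 2 was picked by its number of wide regions.

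By class of width, close neighbours became more frequent already below 400 bp, and the wide classes showed no steady further rise. The share with a neighbour within 500 bp was 35.3% at 150 to 250 bp, 37.6% above that and under 300 bp, 39.2% from 300 to under 350 bp and 43.1% from 350 to under 400 bp. Beyond the limit it was 41.4% from 400 to under 450 bp, 44.6% from 450 to under 500 bp and 43.7% at 500 bp or more, where the exact binomial 95% interval, 35.2 to 52.5%, reached down to the common regions. The share in clusters of 10 or more stood at 26.5, 25.9 and 26.6% in the 3 classes between 250 and 400 bp, and at 28.0, 29.9 and 24.4% in the 3 wide classes. The narrowest regions, under 150 bp, had the most close neighbours of all, 64.3%, and the lowest share without a linked neighbour, 6.30%.

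**Figure D5:**
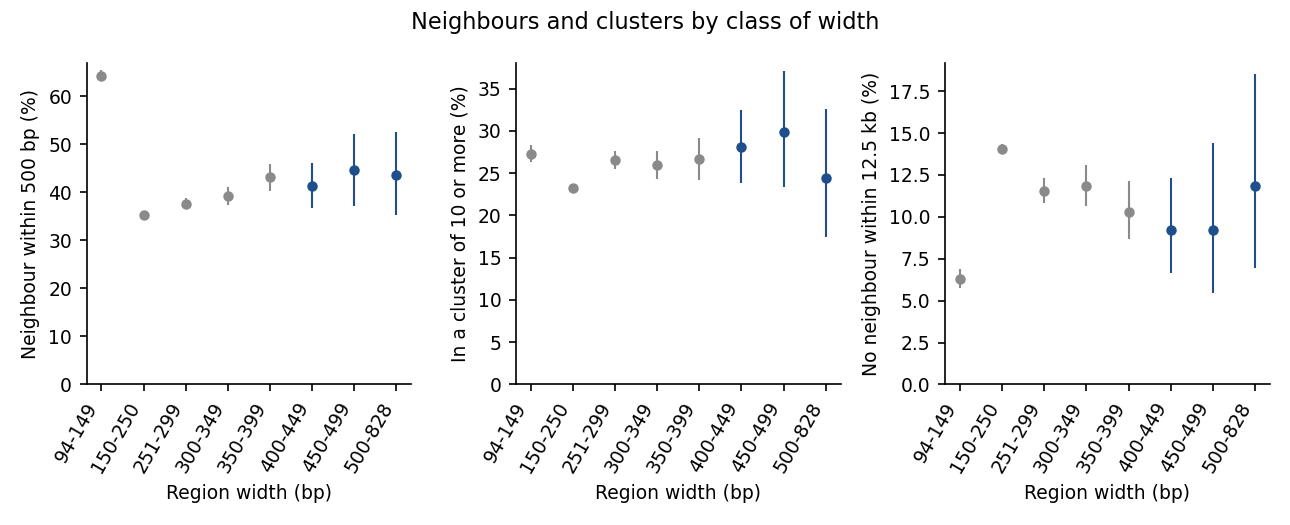
Share of regions (vertical axes, %) with a neighbour within 500 bp, in a cluster of 10 or more, and with no neighbour within 12500 bp, by class of width (horizontal axes, bp). Points are shares and bars exact binomial 95% intervals, blue for the wide classes, whose intervals overlap those of the class just under 400 bp in all 3 panels. The intervals treat regions as independent, although regions of the same linked group share its size.

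Set against the 11148 regions wider than 250 bp and narrower than 400 bp in place of the common ones, wide regions passed the threshold in none of the 9 measures (exact sign-flip permutation test, 1 with an unadjusted p under 0.05). The difference was 3.57 points for a neighbour within 500 bp (SD 8.97, exact sign-flip permutation, adjusted p = 0.326) and 2.19 points for clusters of 10 or more (SD 7.03, adjusted p = 0.343). With the limit raised to 450 bp, 319 regions were left, and against the common ones their differences of 7.76 points for a close neighbour and 4.77 points for clusters did not pass either (exact sign-flip permutation, adjusted p = 0.0684 and 0.0907). A p that misses the threshold does not show that both classes are alike.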

How the data were processed

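The authors deposited 1 list of open regions with the series of 16 samples. Its columns, per the file header, are a region's chromosome and its start and end positions, with no score, count or sample. Build mm9 and the tools HOMER 4.6, Picard 1.130, Bowtie2 2.2.4, SAMtools 1.3 and cutadapt 1.8.3 appear in the submitters' processing notes. What each tool did, which samples entered the list and how they were combined is not given in the sources used here. Nor is it given whether a wide region is 1 call or several merged ones. Depth is unknown. A caller that joins or splits nearby openings would change both widths and gaps.

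Starts were raised by 1 for printing. Gaps run from edge to edge, links are gaps under 12500 bp, and bins are 1 Mb. Differences were taken per chromosome and tested by an exact two-sided sign-flip permutation test over 20 chromosomes, whose smallest p is 1.91e-06, with Benjamini-Hochberg adjustment over 9 measures, of which a neighbour within 12500 bp and isolation are the same comparison. Where an alternative setting recomputed only some of the 9 measures, the others entered its adjustment with their p from the main comparison. The threshold was an adjusted p of 0.05. Intervals are exact Clopper-Pearson and treat regions as independent, although regions of the same linked group share its size, so they can be too narrow. Python 3.11.15, numpy 2.4.6, pandas 2.3.3 and scipy 1.17.1 were used, and the script was tested on simulated data. The members and measures were chosen with earlier results of these data known. Named regions were the 20 widest, the 5 clusters with the most wide regions, the 5 closest pairs and the 5 most isolated. The clusters with the most regions, with their wide regions, and the fullest bin were added after their values were seen. GC content and promoter share, planned for the case that mm9 sequence was at hand, were not run.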

Additional observations from a re-analysis of the deposited data

How the results depend on the processing

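No paired analysis was possible because no region has a value in any single sample, and neither could replicates be left out. The number of wide regions follows from its limit: 2016 at 350 bp, 319 at 450 bp, 135 at 500 bp, and 3379 or 12024 of 400 bp or more after regions within 100 or 500 bp were merged. Differences below are in percentage points unless said, and "no longer passed" refers to the adjusted sign-flip permutation p. From 450 bp, no longer passed: a neighbour within 500 bp (7.76), within 12500 bp (4.06), isolated (-4.06), clusters of 10 or more (4.77), regions within 50 kb (0.836 regions) and per 1 Mb bin (4.77 regions). From 500 bp, the first 5 of these also did not (6.05, 2.71, -2.71, 2.71 and 0.813 regions), with 135 regions left. From 350 bp, wide neighbours passed (2.28). Against all regions under 400 bp, a neighbour within 500 bp no longer passed (3.60). Against regions wider than 250 and narrower than 400 bp, the same 6 measures no longer passed (3.57, 1.40, -1.40, 2.19, 0.315 regions and 2.73 regions), and clusters of 20 or more turned to -0.330. With links of 5 kb, clusters of 10 or more no longer passed (0.0763) and clusters of 20 or more turned to -0.0137. After merging within 1000 bp, a neighbour within 12500 bp (3.01) and isolation (-3.01) no longer passed. Measured from centre to centre, a distance that takes in the wide region's own bases, a neighbour within 500 bp turned to -6.70 (adjusted p = 0.00036 by the sign-flip permutation test). The mean position turned to -0.662, -0.281 and -2.20 from 350, 450 and 500 bp and to -0.00931 pooled over chromosomes, and wide neighbours to -0.457 from 500 bp; none of these passed in the main comparison. Without X, no direction or call changed, nor with 3 alternatives chosen after seeing the data: common regions from 1 bp above 150 bp, regions of 150 bp or less left out of the list, and common regions weighted to the wide ones' local density. The causes were not tested. A stretch with no region is one where none was called at an unknown depth.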
